A study of Mus musculus with 28 samples.

Results

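The Akr1c genes of the mouse are a family of 9 rows in a table of 25251 genes: Akr1c6, Akr1c12, Akr1c13, Akr1c14, Akr1c18, Akr1c19, Akr1c20, Akr1c21 and Akr1cl. They were taken by symbol, and the family was chosen by a measured value, the RPKM and counts of Akr1c14 in Flt3+/+ and Flt3ITD/ITD MSCs. Values of the family in that contrast are therefore given as a description, without a test. RNA came from endothelial cells (ECs; CD45-Ter119-CD31+) and mesenchymal stromal cells (MSCs; CD45-Ter119-CD31-CD166-Sca1+) sorted from the bone-lining fraction, and from bone marrow mononuclear cells (MNCs). Donors were C57BL/6 mice of 8 to 10 wk that carried either 2 normal copies of the receptor tyrosine kinase gene Flt3 (Flt3+/+) or an internal tandem duplication knocked into both copies (Flt3ITD/ITD). The knock-in is in the germline, so the stromal cells of Flt3ITD/ITD mice carried it as well as the blood cells. Each library was made from 100 ECs, 100 MSCs or 200 MNCs, with 5 libraries per genotype for ECs, 5 for MSCs and 4 for MNCs, 28 in all.

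Akr1c enzymes are cytosolic oxidoreductases that use nicotinamide cofactors, such as NADPH, to interconvert hydroxyl and keto groups on steroids, prostaglandins and reactive carbonyl compounds. By interconverting active and inactive hormones they set how much ligand reaches steroid receptors inside a cell, and they also clear aldehydes and quinones. Akr1c14 is the mouse 3α-hydroxysteroid dehydrogenase, which makes 3α-hydroxy metabolites of androgens and progestins. Akr1c18 is the 20α-hydroxysteroid dehydrogenase, which inactivates progesterone. Akr1c6 is a 17β-hydroxysteroid dehydrogenase of the liver, and Akr1c21 acts on 17α- and 3α-hydroxysteroids. Akr1c12, Akr1c13, Akr1c19 and Akr1c20 are oxidoreductases with broad substrates, and Akr1cl is the least studied of the 9.

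In the GENCODE annotation of GRCm38, the build of the deposited values (mm10), 8 of the 9 genes formed 1 cluster at chr13:4049011-4586541, which spanned 537.531 kb. The order along the chromosome was Akr1c14, Akr1c18, Akr1c13, Akr1c19, Akr1c12, Akr1c6, Akr1c20 and Akr1c21. Genes on the plus strand numbered 5, and Akr1c18, Akr1c12 and Akr1c20 were on the minus strand. Akr1cl lay apart at chr1:65012689-65032759 on the minus strand. Each gene of the cluster had 9 exons and a coding sequence of 969 bases in the transcript used here, and Akr1cl had 10 exons and 966 coding bases. The annotated pseudogene Gm18857 overlapped Akr1c14 on the same strand and had no row of its own, and the pseudogenes Marcksl1-ps4 and Gm8550 overlapped Akr1c19 and Akr1cl.

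**Figure D1:**
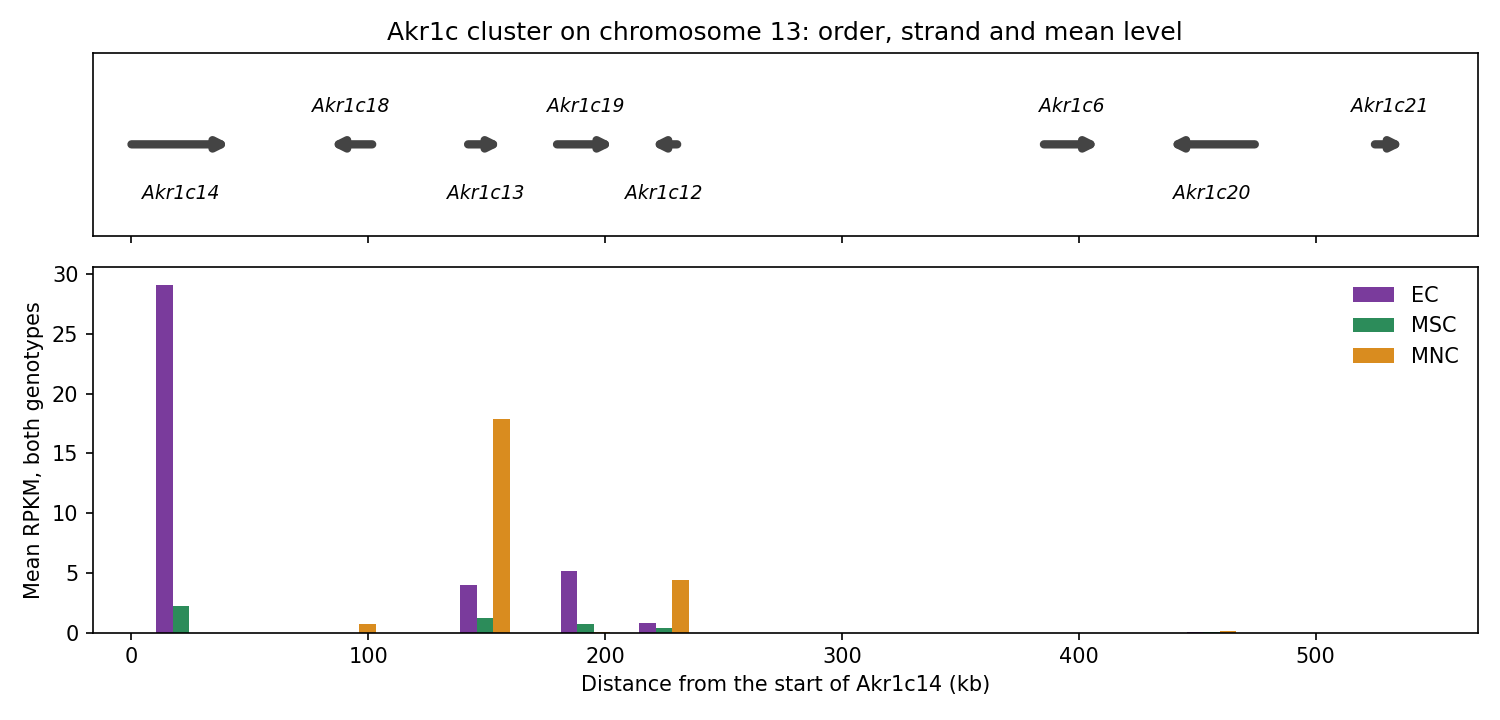
Map of the Akr1c cluster on chromosome 13. The upper panel shows each gene as an arrow in its direction of transcription against distance from the start of Akr1c14 in kb, and the lower panel shows mean RPKM over both genotypes in ECs (n = 10), MSCs (n = 10) and MNCs (n = 8). Akr1c14 had the highest mean in ECs (29.1) and Akr1c13 the highest in MNCs (17.9), while Akr1c6, Akr1c20 and Akr1c21 had means below 0.1.

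Only reads of 51 bases with a single best place were counted, so the sequences of the family decide which of its members could be measured. The coding sequences of Akr1c12 and Akr1c13 were identical at 932 of 969 bases (96.2%), and those of Akr1c6 and Akr1c20 at 894 of 969 bases (92.3%). All other pairs were between 72.4% and 80.0% identical. Of all 919 stretches of 51 bases in the coding sequences of Akr1c12 and Akr1c13, 336 (36.6%) were the same in both genes and 620 (67.5%) differed at 2 or fewer bases. The lines that follow show the stretch where the pair differed most (coding bases 364 to 414, counted from the start codon), with the 9 differing bases in capitals, and then a stretch with no difference (coding bases 34 to 84). A read from the latter cannot be assigned to either gene.
Akr1c12, bases 364 to 414: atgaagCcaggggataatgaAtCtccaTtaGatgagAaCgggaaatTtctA
Akr1c13, bases 364 to 414: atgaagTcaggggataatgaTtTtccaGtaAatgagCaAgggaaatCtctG
Akr1c12 and Akr1c13, bases 34 to 84: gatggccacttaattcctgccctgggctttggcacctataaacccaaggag

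Over the whole transcript, 71.9% of the 51-base windows of Akr1c12 and 71.9% of those of Akr1c13 had no exact match in any other annotated gene, and every shared window was shared between these 2 genes. When windows within 2 mismatches of another family member were also set aside, 41.9% and 42.0% remained. Akr1c14 had no window with an exact match elsewhere, and 98.8% of its windows were more than 2 mismatches from the rest of the family. The same share was 99.6% for Akr1c19, 100% for Akr1c21, 97.9% for Akr1cl, 94.7% for Akr1c18, 80.2% for Akr1c6 and 79.3% for Akr1c20. RPKM was scaled to a length close to the whole transcript (1227 bases for Akr1c12 and 1228 for Akr1c13, from the ratio of count to RPKM). The levels of these 2 genes can thus be understated next to Akr1c14, and reads with mismatches could be exchanged between them.

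**Figure D2:**
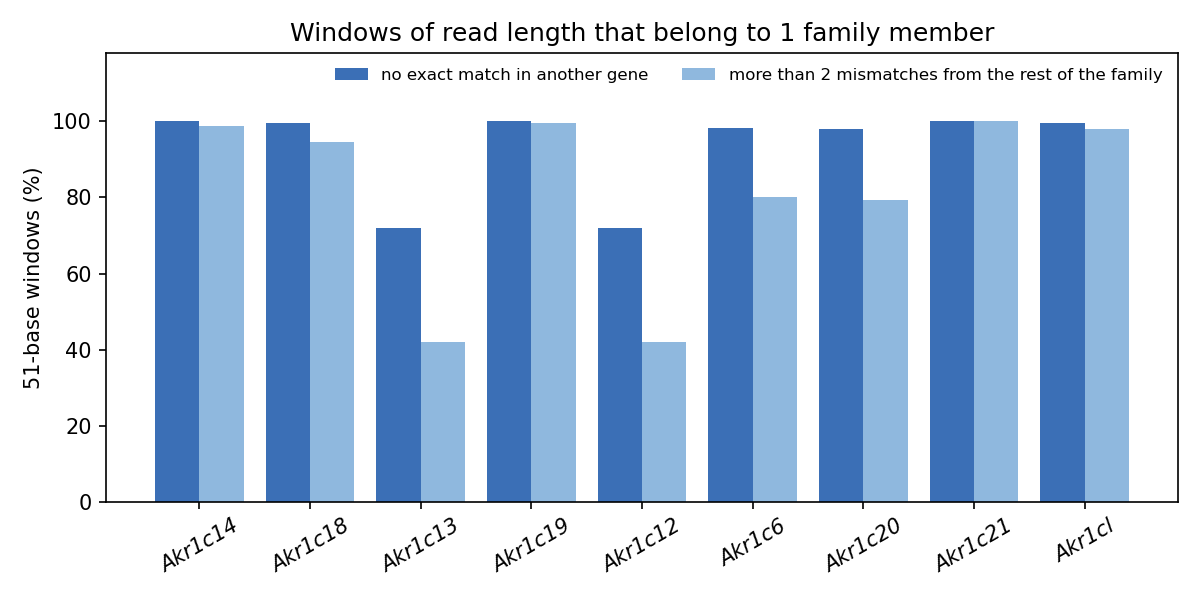
Bars give, for each of the 9 genes, the percent of 51-base transcript windows with no exact match in another annotated gene (dark) and with more than 2 mismatches from every other family member (light). Akr1c12 and Akr1c13 stand at 71.9% for exact matches, and the other 7 genes at 98.1% or more.

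The same pair was alike around its transcription starts. RefSeq promoters (GRCm38.p6; windows of 300 bases around the start) were found for 8 of the 9 genes, all but Akr1c20. The promoters of Akr1c12 (chr13:4279350-4279649, minus strand) and Akr1c13 (chr13:4190937-4191236, plus strand) were identical at 284 of 296 aligned bases (95.9%), whereas the other pairs were between 55.0% and 68.0% identical. They are printed because these 2 genes had the highest means of the family in MNCs, and because their counts are described together. Capitals mark the 16 bases in each that differed or had no partner in the alignment.
Akr1c12 promoter: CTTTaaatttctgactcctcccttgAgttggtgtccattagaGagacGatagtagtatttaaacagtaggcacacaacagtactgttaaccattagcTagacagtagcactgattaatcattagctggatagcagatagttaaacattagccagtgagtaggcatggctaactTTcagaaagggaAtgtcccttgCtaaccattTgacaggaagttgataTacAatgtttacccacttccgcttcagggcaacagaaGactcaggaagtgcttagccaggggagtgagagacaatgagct
Akr1c13 promoter: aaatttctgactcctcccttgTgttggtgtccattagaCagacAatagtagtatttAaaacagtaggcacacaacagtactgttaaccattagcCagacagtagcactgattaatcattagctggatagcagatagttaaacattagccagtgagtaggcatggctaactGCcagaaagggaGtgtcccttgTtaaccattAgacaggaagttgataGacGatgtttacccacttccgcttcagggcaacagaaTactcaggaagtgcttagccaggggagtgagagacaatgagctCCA

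The promoters of Akr1c14 (chr13:4059341-4059640, plus strand) and Akr1c19 (chr13:4233490-4233789, plus strand) are shown for the 2 other members with a mean of at least 1 RPKM over all libraries. Both strands were searched for CCAAT, for TATAAA and for TTCNNNGAA, the core of a STAT binding site, and matches are in capitals. Both windows start from the RefSeq transcript, which lies inside the longer GENCODE gene. The motifs do not overlap each other there. CCAAT was found in Akr1c14 and Akr1c19, as its reverse complement, and TTCNNNGAA, which reads the same on both strands, was found in Akr1c19. None of the 3 motifs was in the windows of Akr1c12 or Akr1c13, which says only that these letters are not there. Of 32544 promoters of the same length, 37.4% held CCAAT, 13.6% held TATAAA and 8.33% held TTCNNNGAA.
Akr1c14 promoter: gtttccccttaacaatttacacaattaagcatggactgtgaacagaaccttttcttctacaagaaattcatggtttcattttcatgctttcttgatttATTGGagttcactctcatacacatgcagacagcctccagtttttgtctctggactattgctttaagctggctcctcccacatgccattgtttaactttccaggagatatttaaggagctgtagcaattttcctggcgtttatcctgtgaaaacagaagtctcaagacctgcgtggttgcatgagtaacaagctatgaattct
Akr1c19 promoter: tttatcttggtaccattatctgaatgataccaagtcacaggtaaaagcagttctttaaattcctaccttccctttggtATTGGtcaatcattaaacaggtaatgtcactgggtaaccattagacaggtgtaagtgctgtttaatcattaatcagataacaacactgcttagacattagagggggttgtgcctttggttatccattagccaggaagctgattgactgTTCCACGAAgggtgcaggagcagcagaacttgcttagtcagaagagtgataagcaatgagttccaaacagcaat

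Depth ranged from 6377013 to 33880743 counts per library. A floor of 3 counts per library was used, and this floor and the intervals below cover counting error only, because amplified reads are not independent molecules. In bulk RNA, fewer cells of a type and less RNA per cell cannot be told apart. The labelled populations had their defining transcripts: Cdh5 was at 164.74 to 251.75 RPKM in ECs and at 0.19 or less in MSCs, Pdgfra at 61.41 to 106.89 in MSCs and at 1.82 or less in ECs, and Ptprc at 124.93 or more in MNCs. A list of 13 leukocyte genes set apart 2 stromal libraries, Flt3ITD/ITD EC replicate 2 (21848 summed RPKM, against 30.7 to 1271 in the other ECs) and Flt3ITD/ITD MSC replicate 5 (5015, against 10.4 to 491 in the other MSCs). In MNCs the list summed to 44441 or more. MNC replicates 1 and 2 of both genotypes had 258 to 420 summed RPKM over 7 genes that respond to tissue dissociation, and replicates 3 and 4 had 17.5 to 29.9. The 7 were Fos, Fosb, Jun, Junb, Egr1, Ier2 and Atf3. The labels name no batch, and the cause of this split was not tested.

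The members made up different shares of the family in the 3 populations. Of the family counts pooled over the libraries of a group, Akr1c14, which has the longest transcript and so gathers more counts per molecule, supplied 76.5% in Flt3+/+ ECs, 97.95% in Flt3ITD/ITD ECs and 94.9% in Flt3+/+ MSCs, but 0.275% in Flt3ITD/ITD MSCs. The share in Flt3+/+ ECs came mainly from replicates 3 and 5 (1799 and 3584 of 6555 counts), and in replicates 1 and 2 Akr1c13 had more counts than Akr1c14 (287 against 240, and 584 against 392). Akr1c13 supplied 78.1% in Flt3+/+ MNCs and 75.7% in Flt3ITD/ITD MNCs. The RPKM summed over the 9 genes were 43.5 ± 8.73 (SD, n = 5) and 36.0 ± 22.1 (n = 5) in Flt3+/+ and Flt3ITD/ITD ECs, 4.91 ± 2.14 (n = 5) and 4.77 ± 5.97 (n = 5) in MSCs, and 18.9 ± 10.3 (n = 4) and 27.8 ± 13.2 (n = 4) in MNCs. In MSCs the means of the sum differed by less than the spread, while the members that made it up differed: Akr1c13, Akr1c19 and Akr1c12 supplied 48.6%, 33.4% and 12.2% in Flt3ITD/ITD MSCs, mostly in single libraries.

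**Figure D3:**
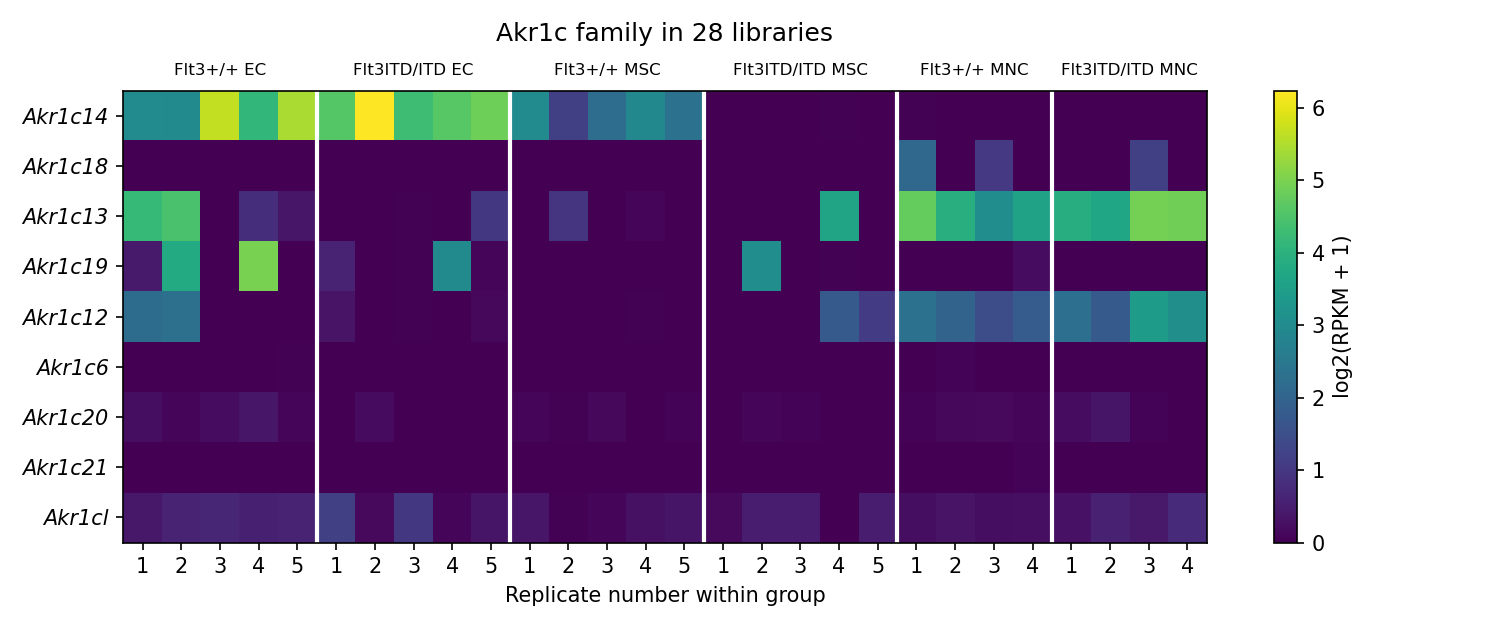
Each column is 1 of the 28 libraries, ordered by group and replicate number, each row is a member of the family, and color gives log2(RPKM + 1). Akr1c14 stands out in all 10 EC libraries and in the 5 Flt3+/+ MSC libraries, Akr1c12 and Akr1c13 in all 8 MNC libraries, and Akr1c19 in single EC and MSC libraries.

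Akr1c14 was present in all 10 EC libraries and had the highest mean of the 9 members there. In 3 of the 5 Flt3+/+ EC libraries another member was higher per length, Akr1c13 in replicates 1 and 2 and Akr1c19 in replicate 4. In Flt3+/+ ECs it was at 7.08, 6.91, 50.1, 16.6 and 42.6 RPKM in replicates 1 to 5, a mean of 24.7 ± 20.4 (SD, n = 5). In Flt3ITD/ITD ECs it was at 23.3, 74.5, 18.8, 23.4 and 28 RPKM, a mean of 33.6 ± 23.1 (n = 5). The 2 genotypes overlapped, with the highest value in Flt3ITD/ITD replicate 2, the EC library with leukocyte transcripts. In MNCs, Akr1c14 had a single count in 1 of the 4 Flt3+/+ libraries and none in the 4 Flt3ITD/ITD libraries.

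In MSCs the values separated by genotype. Flt3+/+ MSCs held 215, 104, 273, 468 and 328 counts of Akr1c14, which is 7.06, 1.25, 3.67, 6.47 and 3.98 RPKM (4.49 ± 2.34, SD, n = 5). Flt3ITD/ITD MSCs held 1, 0, 0, 1 and 0 counts, at most 0.02 RPKM. All 5 libraries of Flt3ITD/ITD MSCs were below all 5 of Flt3+/+ MSCs, and the pooled counts of 1388 and 2 give a ratio of 628 per count of depth. With only 2 counts on the lower side the size of that ratio is loosely set, and it describes the values that chose the family. Of 13574 genes tested in this contrast 0.0295% were called, and this is the contrast that brought the family into view, so nothing is read from that share. The group means ran in the order Flt3ITD/ITD ECs, Flt3+/+ ECs, Flt3+/+ MSCs, Flt3ITD/ITD MSCs and Flt3+/+ MNCs, and Flt3ITD/ITD MNCs had no count. Neighbors in that order overlapped at the top, and the highest Flt3+/+ MSC library (7.06) lay between the 2 lowest Flt3+/+ EC libraries, whereas the gap between Flt3+/+ and Flt3ITD/ITD MSCs was free of overlap.

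**Figure D4:**
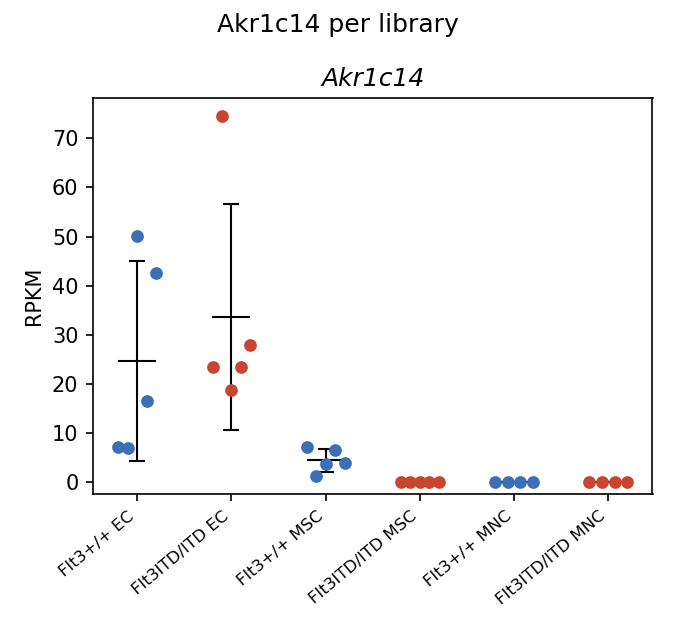
Akr1c14 in RPKM in each library (points; blue, Flt3+/+; red, Flt3ITD/ITD), with the mean (long bar) and SD (whiskers, cut at 0) of each group. Values reach 74.5 in ECs, lie between 1.25 and 7.06 in Flt3+/+ MSCs, and are at 0.02 or below in Flt3ITD/ITD MSCs and in MNCs.

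Endothelial transcripts in the MSC libraries are given beside these values. Mean Akr1c14 in Flt3+/+ MSCs was 4.49 RPKM next to 24.7 in Flt3+/+ ECs, while Cdh5, the endothelial cadherin, was at 0.16, 0.19, 0, 0.05 and 0 RPKM in the 5 Flt3+/+ MSC libraries next to a mean of 239 in the ECs. The 8 endothelial genes summed to 7.34 to 20.4 RPKM in Flt3+/+ MSCs and to 5.43 to 25.0 in Flt3ITD/ITD MSCs, against 2243 or more in ECs. Lists of bone and cartilage genes reached lower in Flt3ITD/ITD MSCs, and the part of other cell types in the Akr1c14 values was not tested. The 6 osteoblast genes summed to 1794 to 3319 RPKM in Flt3+/+ and 155 to 2824 in Flt3ITD/ITD MSCs, and the 4 cartilage genes to 600 to 1175 and 362 to 861.

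The genes that flank the cluster were read for the same MSC libraries. Akr1e1, the next aldo-keto reductase beyond Akr1c21, was at 16.7 ± 12.4 RPKM (SD, n = 5) in Flt3+/+ and 24.02 ± 14.2 (n = 5) in Flt3ITD/ITD MSCs. Klf6, a zinc finger transcription factor farther out on that side, was at 73.8 ± 13.2 and 80.8 ± 25.3. Net1, a guanine nucleotide exchange factor on the other side, was at 1.27 ± 1.42 and 1.96 ± 3.74. All 3 differed by less than the spread between replicates.

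Tests were two-sided and made with the quasi-likelihood method of edgeR, with Benjamini-Hochberg adjustment over all genes. To be called, a gene needed an adjusted p under 0.1 and group means of RPKM at least 1 log2 unit apart. Between genotypes in ECs, Akr1c14 did not pass (log2 fold change 0.45, SE 0.65, adjusted p = 0.9998, edgeR), and without Flt3ITD/ITD replicate 2 the estimate changed sign (-0.10). Against MNCs, Akr1c14 was higher in ECs of both genotypes. It passed the filter on low counts through the EC libraries, so the direction of a call was fixed in advance. In Flt3+/+ libraries the log2 fold change was 11.52 (SE 1.30, adjusted p = 0.000132, edgeR), and every EC library was above every MNC library. Pooled counts of 6555 and 1 give a ratio of 4902 (95% counting interval 880 to 193647). In Flt3ITD/ITD libraries the adjusted p was 0.000199 (edgeR), and Akr1c14 was at least 523-fold higher in ECs, with MNCs set to 3 counts per library. In these comparisons 36.2% (Flt3+/+) and 35.4% (Flt3ITD/ITD) of all genes tested were called, 19.9% and 18.8% as higher in ECs.

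Akr1c13 and Akr1c12 had the highest means of the family in MNCs. Akr1c13 was at 26.2, 14.2, 7.29 and 11.0 RPKM in Flt3+/+ MNCs (14.7 ± 8.20, SD, n = 4) and at 13.9, 11.9, 29.8 and 28.6 RPKM in Flt3ITD/ITD MNCs (21.0 ± 9.46, n = 4). Akr1c12 was at 4.06, 2.99, 1.77 and 2.49 RPKM in Flt3+/+ MNCs (2.83 ± 0.962, n = 4) and at 3.84, 2.41, 9.89 and 7.45 RPKM in Flt3ITD/ITD MNCs (5.90 ± 3.40, n = 4). All 8 MNC libraries had at least 128 counts of Akr1c13 and 31 of Akr1c12, and the genotypes overlapped for both genes.

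In ECs and MSCs the same 2 genes were at 0 in many libraries and high in a few. Akr1c13 had 287, 584, 0, 12 and 13 counts in Flt3+/+ ECs and 0, 0, 1, 0 and 33 in Flt3ITD/ITD ECs. In MSCs it had 0, 39, 0, 2 and 0 counts in Flt3+/+ and 0, 0, 0, 354 and 0 in Flt3ITD/ITD libraries. The 3 libraries with 287 or more counts reached 17.2, 20.9 and 11.4 RPKM, which lies within the MNC range of 7.29 to 29.8. Akr1c12 was above 3 counts in the same 3 libraries (61, 109 and 74 counts; 3.65, 3.90 and 2.39 RPKM) and, in ECs and MSCs, otherwise only in Flt3ITD/ITD MSC replicate 5 (15 counts).

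Blood cell transcripts in these libraries are given beside them, and their part in the values was not tested. The 13 leukocyte genes summed to 1271 and 158 RPKM in Flt3+/+ EC replicates 1 and 2 and to 40.45 in Flt3ITD/ITD MSC replicate 4, with 6, 2 and 4 of the 13 genes at 0, while MNCs were at 44441 or more with none at 0. Ptprc, which encodes CD45, had 0, 2 and 1 counts in the same 3 libraries and 9008 or more in every MNC library. Flt3ITD/ITD EC replicate 2, which had 21848 RPKM of the leukocyte list and 778 counts of Ptprc, held no count of Akr1c12 or Akr1c13. Flt3ITD/ITD MSC replicate 5, with 5015 RPKM and 32 counts, held 15 counts of Akr1c12 and none of Akr1c13. Flt3+/+ EC replicate 1 also stood apart in the erythroid genes, of which 5 were in the table. They summed to 100.92 RPKM there with none at 0, against 17.9 or less in the other 19 EC and MSC libraries and 2.58 to 1736 in MNCs. Flt3+/+ EC replicate 2 and Flt3ITD/ITD MSC replicate 4 had 0.02 and 0.80 RPKM of the erythroid genes, with 4 of 5 at 0 in each.

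**Figure D5:**
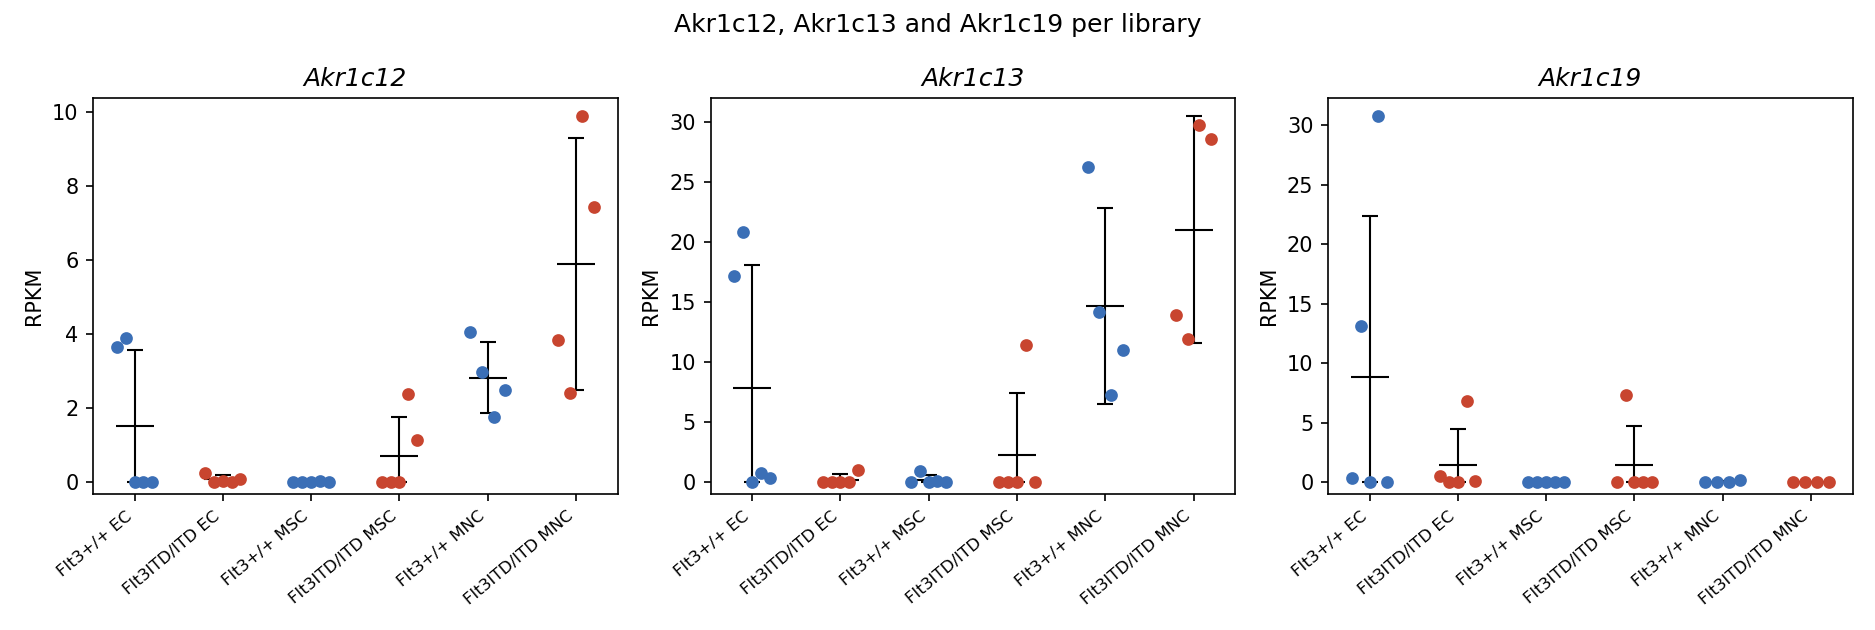
Akr1c12, Akr1c13 and Akr1c19 in RPKM in each library (points; blue, Flt3+/+; red, Flt3ITD/ITD), with the mean (long bar) and SD (whiskers, cut at 0) of each group. Akr1c12 and Akr1c13 are above 0 in all MNC libraries and in a few EC and MSC libraries, and Akr1c19 is above 6 RPKM in 4 stromal libraries only.

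In the libraries rich in both, the 2 genes had a similar ratio to each other. Akr1c12 made up 13.4% to 24.9% (median 18.96%) of the counts of the pair in the 8 MNC libraries. The share was 17.5% in Flt3+/+ EC replicate 1 (95% Wilson interval 13.9% to 21.9%), 15.7% in replicate 2 (13.2% to 18.6%) and 17.3% in Flt3ITD/ITD MSC replicate 4 (14.0% to 21.2%), all within the MNC range. The other stromal libraries with 12 or more counts of the pair lay outside that range. Flt3+/+ MSC replicate 2 had 0 of 39 counts (0% to 8.97%), Flt3ITD/ITD MSC replicate 5 had 15 of 15 (79.6% to 100%), and Flt3ITD/ITD EC replicate 5 had 3 of 36 (2.87% to 21.8%). Flt3+/+ EC replicates 4 and 5 had 0 of 12 (0% to 24.2%) and 0 of 13 (0% to 22.8%), so the intervals of these last 3 libraries reach into the MNC range. Over the 28 libraries the log2(RPKM + 1) values of the pair correlated with r = 0.955, and they share 28.1% of their read windows. Akr1c12 with Akr1c14 gave r = -0.56, and Akr1c13 with Akr1c14 gave r = -0.52 across the same libraries, which differ in cell type.

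Genotype tests of the pair in MNCs did not pass. The log2 fold change of Flt3ITD/ITD over Flt3+/+ was 0.88 (SE 0.47, adjusted p = 0.529, edgeR) for Akr1c12 and 0.36 (SE 0.40, adjusted p = 0.787, edgeR) for Akr1c13. In MNCs 0.0144% of all genes tested were called, and 2 of the 9 members passed the filter on low counts. In ECs 0.00810% of all genes tested were called, and Akr1c14 and Akr1cl were the members that passed the filter. No member was called in ECs or MNCs, none of those that passed the filter had an unadjusted p below 0.05, and DESeq2 called none. Without the filter, the EC values were -4.43 for Akr1c12 (SE 2.12, adjusted p = 0.576, edgeR) and -5.13 for Akr1c13 (SE 2.17, adjusted p = 0.560, edgeR). Their unadjusted p was 0.0592 and 0.0366 (edgeR), with most counts in Flt3+/+ EC replicates 1 and 2. The difference of the genotype effect between ECs and MNCs had log2 values of -5.47 (SE 2.22, adjusted p = 0.492, edgeR) for Akr1c12 and -5.50 (SE 2.21, adjusted p = 0.484, edgeR) for Akr1c13. The latter was -9.36 (adjusted p = 0.263, edgeR) without Flt3ITD/ITD EC replicate 5. These 2 had an unadjusted p below 0.05 and were the only ones of the 5 members tested that did. The share of all genes with such a p was not counted. In that test 0.0321% of all genes were called (0.00641% positive and 0.0256% negative), and DESeq2 called no member.

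Within MNCs the genotype difference was unequal in the 2 sets of replicates that differed in dissociation genes. In replicates 1 and 2, Akr1c12 was at 4.06 and 2.99 RPKM in Flt3+/+ and at 3.84 and 2.41 RPKM in Flt3ITD/ITD MNCs. In replicates 3 and 4 it was at 1.77 and 2.49 RPKM in Flt3+/+ and at 9.89 and 7.45 RPKM in Flt3ITD/ITD MNCs. The higher values in Flt3ITD/ITD MNCs thus came from replicates 3 and 4, which also had the lowest leukocyte sums (44441 and 48084 RPKM, against 122335 or more in the other 6). Ptprc, a gene of the leukocyte list, was not lower there (160.84 and 156.37 RPKM, against 124.93 to 156.87 in the other 6). With the set as a term, the fold change was 0.73 (SE 0.48, adjusted p = 0.573, edgeR) for Akr1c12 and 0.31 (SE 0.44, adjusted p = 0.815, edgeR) for Akr1c13. The part of these sets in the values was not tested further.

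Between populations, both genes were called lower in stroma in some comparisons. They passed the filter on low counts there through the MNC libraries, so the direction of a call was fixed in advance. These comparisons share libraries within a genotype, so their results are not independent of each other. In Flt3+/+ mice, MSCs were below MNCs for Akr1c12 (log2 fold change -8.05, SE 0.90, adjusted p = 7.31e-05, edgeR) and for Akr1c13 (-6.03, SE 1.499, adjusted p = 0.00914, edgeR). Akr1c12 had 1 count in all Flt3+/+ MSC libraries and 260 in the MNC libraries, a ratio of 491 (95% counting interval 87.4 to 19472). In Flt3ITD/ITD mice, ECs were below MNCs for Akr1c12 (-6.45, SE 1.17, adjusted p = 0.00238, edgeR) and for Akr1c13 (-6.45, SE 1.59, adjusted p = 0.0128, edgeR). Single libraries set the size of both Akr1c13 values, which were -9.42 without Flt3+/+ MSC replicate 2 and -10.32 without Flt3ITD/ITD EC replicate 5, and both stayed called. Every library of MSCs in the former comparison, and of ECs in the latter, was below every MNC library. In Flt3+/+ MSCs against MNCs 42.7% of all genes tested were called, 22.9% higher and 19.7% lower, and 16.6% were called lower in Flt3ITD/ITD ECs than in MNCs.

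The remaining comparisons with MNCs did not pass. In Flt3+/+ ECs against MNCs the log2 fold change was -0.999 for Akr1c12 (SE 1.62, adjusted p = 0.685, edgeR) and -0.98 for Akr1c13 (SE 1.44, adjusted p = 0.652, edgeR), with EC replicates 1 and 2 inside the MNC range, where 16.3% of genes were called lower. In Flt3ITD/ITD MSCs against MNCs it was -2.73 for Akr1c12 (SE 1.68, adjusted p = 0.258, edgeR) and -2.80 for Akr1c13 (SE 2.03, adjusted p = 0.339, edgeR), where 17.0% of genes were called lower. Without MSC replicate 4 the latter values became -4.29 (adjusted p = 0.0992, edgeR) and -11.98 (adjusted p = 0.000364, edgeR), and both genes were called. With the other 8 libraries left out in turn, neither was called.

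Akr1c19 was found in single stromal libraries. In Flt3+/+ ECs it had 6, 371, 0, 499 and 0 counts, which is 0.36, 13.2, 0, 30.8 and 0 RPKM. In Flt3ITD/ITD ECs it had 4, 0, 1, 100 and 2 counts, which is 0.51, 0, 0.03, 6.79 and 0.06 RPKM. Flt3+/+ MSCs had none, and Flt3ITD/ITD MSCs had 0, 242, 0, 1 and 0 counts, with 7.35 RPKM in replicate 2. MNCs had 4 counts in 1 Flt3+/+ library and none elsewhere. Libraries with 100 or more counts thus numbered 4 of 28, and 18 libraries had none. Only Flt3+/+ EC replicate 2 had over 100 counts of both Akr1c19 and Akr1c13, and the log2(RPKM + 1) values of these 2 genes had r = -0.06 over the 28 libraries.

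In every comparison of 2 groups, the filter for low counts removed Akr1c19. Without the filter, ECs were above MNCs with an adjusted p of 0.0813 in Flt3+/+ and 0.0949 in Flt3ITD/ITD mice (edgeR), and Flt3+/+ ECs were above Flt3+/+ MSCs with an adjusted p of 0.0746 (edgeR). The Flt3+/+ results rested on EC replicates 2 and 4, and the Flt3ITD/ITD result on EC replicate 4 alone. MNCs had 4 counts and Flt3+/+ MSCs none, so the direction of a call was fixed in advance. Of all genes, 5651 of 23503, 5542 of 23387 and 2885 of 22763 were called in these fits. DESeq2 did not call Akr1c19 in Flt3ITD/ITD ECs against MNCs. The test did not pass for Flt3ITD/ITD ECs against MSCs (adjusted p = 0.970, edgeR) or between genotypes in ECs (log2 fold change -2.49, SE 2.21, adjusted p = 0.707, edgeR). The last difference was smaller than the spread, since means were 8.86 ± 13.5 and 1.48 ± 2.98 RPKM (SD, n = 5 each).

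In ECs against MSCs, no member passed the filter in Flt3+/+ libraries and Akr1cl alone passed in Flt3ITD/ITD libraries, Akr1c14 being set aside as the gene that picked the family. Of all genes tested, 18.4% (8.83% higher and 9.61% lower in ECs) and 16.3% (8.16% higher and 8.10% lower) were called there. Without the filter, Akr1c12 was higher in Flt3+/+ ECs than in MSCs (adjusted p = 0.0830, edgeR), resting on EC replicates 1 and 2, and Akr1c13 was not (adjusted p = 0.167, edgeR). Akr1c12 had 1 count in Flt3+/+ MSCs, so its direction was fixed in advance, and 2885 of 22763 genes were called in that fit. DESeq2 called 3 members in Flt3+/+ ECs against MSCs and none in Flt3ITD/ITD libraries. Over all genes with an unadjusted p it called 4430 of 21210 and 4156 of 21223.

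Akr1c18 was seen in MNCs alone. It had 73, 0, 17 and 0 counts in Flt3+/+ MNCs and 0, 0, 29 and 0 in Flt3ITD/ITD MNCs, which is 3.30, 1.05 and 1.28 RPKM in the 3 libraries above 0. In 202507118 counts of the 10 EC libraries and 263852708 counts of the 10 MSC libraries there were none, and 3 counts per library are up to 0.470 CPM (counts scaled to a common library total) in the shallowest EC library and 0.281 CPM in the shallowest MSC library. Without the filter, Flt3+/+ MNCs were above ECs (adjusted p = 0.0676, edgeR) and MSCs (adjusted p = 0.0504, edgeR). These results rested on MNC replicates 1 and 3, and with no count in ECs or MSCs the direction was fixed in advance. Of all genes, 5651 of 23503 and 7499 of 22646 were called in these fits. The tests did not pass in Flt3ITD/ITD mice (adjusted p = 0.152 and 0.137, edgeR).

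Akr1c6, Akr1c20 and Akr1c21 were near the limit of detection. Akr1c6 had 2 counts in all, 1 in an EC and 1 in an MNC library, and Akr1c21 had 1 count in an MNC library. Akr1c20 had at most 7 counts in any library. In Flt3+/+ ECs it was above 0 in all 5 libraries, at 0.07 to 0.29 RPKM, and in Flt3ITD/ITD ECs in 1 of 5, at 0.13 RPKM. The fit without the filter gave a log2 fold change of -2.04 for that difference (SE 1.18, adjusted p = 0.621, edgeR).

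Akr1cl was low but widespread, with 1 to 34 counts in 27 of the 28 libraries. Its mean was 0.490 ± 0.106 RPKM (SD, n = 5) in Flt3+/+ ECs and 0.546 ± 0.553 (n = 5) in Flt3ITD/ITD ECs, where 2 libraries were above and 3 below the whole Flt3+/+ range. In MSCs it was at 0.172 ± 0.120 and 0.266 ± 0.193 (n = 5 each), and in MNCs at 0.200 ± 0.0356 and 0.438 ± 0.197 (n = 4 each). Between genotypes in ECs the test did not pass (log2 fold change 0.10, SE 0.69, adjusted p = 0.9998, edgeR). Population tests that it entered did not pass either, with 0.36 for Flt3ITD/ITD ECs against MNCs (SE 0.80, adjusted p = 0.782, edgeR) and 0.81 against MSCs (SE 0.96, adjusted p = 0.677, edgeR).

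The genes whose pattern was most like that of each member were ranked by Pearson's r of log2(RPKM + 1) over the 28 libraries, among 13727 genes with a mean of at least 1 RPKM. For Akr1c14 they were Sypl (0.923), 1810011O10Rik (0.920) and Elk3 (0.918). Elk3, an ETS transcription factor, was at 55.0 and 53.9 RPKM in Flt3+/+ and Flt3ITD/ITD ECs, 9.42 and 3.77 in MSCs and 3.12 and 3.90 in MNCs. Beside each other, Akr1c12 and Akr1c13 had Fam69a (0.854) and Rps9 (0.850), and Ncapd2 (0.856) and Incenp (0.851). Ncapd2, a condensin subunit, and Incenp, of the chromosomal passenger complex, were highest in MNCs, at 21.1 and 16.5 RPKM and at 12.7 and 9.19 RPKM in the 2 genotypes. Akr1c19 had Mirlet7f-1 (0.813), AK030646 (0.788) and Tas2r126 (0.764). The libraries of a population share a cell type, so these values describe likeness over 3 populations more than over 28 independent samples.

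Genes that work beside the family were taken from 5 lists, which held 109 genes, of which 104 were in the table. Of these, 11 were other aldo-keto reductases, 35 made or modified steroids, 9 were steroid and xenobiotic receptors, 28 made, degraded, moved or sensed prostaglandins and 26 belonged to the antioxidant response. Between genotypes none was called by edgeR in ECs (48 tested), MSCs (67) or MNCs (68). An unadjusted p below 0.05 (edgeR) was found for 2, 4 and 16 of those tested. DESeq2 called 1, 2 and 4 of the 104 genes in the table. Over all genes with an unadjusted p, DESeq2 called 362 of 21653 for the EC contrast, 197 of 19581 for MSCs, and 327 of 22450 for MNCs. Fewer genes than these had an adjusted p in DESeq2. The difference of the genotype effect between ECs and MNCs gave no call by edgeR among 73 tested, 7 with an unadjusted p below 0.05. DESeq2 called 2 listed genes there, and 373 of 23838 over all genes. The share of all genes with an unadjusted p below 0.05 was not counted, so nothing is read from the 2, 4, 16 and 7.

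Against MNCs, listed genes were called in both directions. A listed gene near 0 in 1 group passed the filter on low counts through the other group. The direction of such a call was fixed in advance, here and in the comparisons of listed genes below. In Flt3+/+ ECs, 12 of 67 listed genes tested were called higher and 17 lower, beside 19.9% and 16.3% of all genes tested. In Flt3+/+ MSCs 21 of 77 were called higher and 13 lower, beside 22.9% and 19.7% of all genes. The corresponding numbers in Flt3ITD/ITD ECs were 12 and 22 of 64, beside 18.8% and 16.6%, and in Flt3ITD/ITD MSCs 24 and 13 of 75, beside 18.3% and 17.0%. Among the steroid receptors called higher in Flt3+/+ MSCs than in MNCs were Nr3c1, the glucocorticoid receptor (log2 fold change 1.37, SE 0.21, adjusted p = 0.000479, edgeR), Esr1, an estrogen receptor (3.55, SE 0.59, adjusted p = 0.000863, edgeR), and Nr3c2, the mineralocorticoid receptor (5.60, SE 1.14, adjusted p = 0.00297, edgeR).

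Among enzymes of steroids, Hsd11b1, which regenerates active glucocorticoid, was at 119 ± 41.6 RPKM (SD, n = 8) in MNCs and was lower in Flt3+/+ ECs (log2 fold change -11.13, SE 1.07, adjusted p = 4.85e-05, edgeR). It was also lower in Flt3ITD/ITD ECs (-6.78, SE 1.71, adjusted p = 0.0141, edgeR). Of the 15 genes of steroid metabolism tested in Flt3+/+ ECs against MNCs, 2 were called higher and 5 lower, beside 19.9% and 16.3% of all genes tested. Of the other aldo-keto reductases, Akr1a1, the general aldehyde reductase, was at 213 ± 65.7 RPKM in ECs (n = 10), 235 ± 35.4 in MSCs (n = 10) and 237 ± 57.1 in MNCs (n = 8), well above any Akr1c gene. Akr1b8, an aldose reductase-like enzyme, was higher in MSCs than in MNCs in Flt3+/+ (log2 fold change 9.13, SE 0.73, adjusted p = 7.56e-06, edgeR) and Flt3ITD/ITD mice (8.20, SE 0.54, adjusted p = 5.76e-06, edgeR). The limit on direction given above bears on fold changes as large as those of Hsd11b1 and Akr1b8.

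Among prostaglandin genes, Ptgis, the prostacyclin synthase, was at 83.8 ± 47.5 RPKM in MSCs (SD, n = 10) and was lower in ECs of both genotypes (log2 fold change -8.74 and -10.11, adjusted p = 0.00271 and 0.000244, edgeR). Pla2g4a, the phospholipase that releases arachidonic acid, was lower in Flt3+/+ ECs than in MSCs (-8.56, SE 1.28, adjusted p = 0.000743, edgeR) and MNCs (-7.63, SE 1.42, adjusted p = 0.00248, edgeR). The limit on direction bears on these values too. From the prostaglandin list, 2 of 19 genes tested were called higher and 5 lower in Flt3+/+ ECs than in MSCs, beside 8.83% and 9.61% of all genes tested. In Flt3ITD/ITD mice 1 and 5 of 18 were called, beside 8.16% and 8.10%. In Flt3+/+ ECs against MNCs 4 of 21 were called higher and 5 lower, beside 19.9% and 16.3%. Among antioxidant genes, Gstm1, a glutathione transferase, was at 685 ± 168 RPKM in ECs, 966 ± 237 in MSCs and 189 ± 67.3 in MNCs. From the antioxidant list, 3 of 19 genes tested were called higher and 6 lower in Flt3+/+ ECs than in MNCs, beside 19.9% and 16.3% of all genes tested. In Flt3ITD/ITD mice 5 and 5 of 18 were called, beside 18.8% and 16.6%. Taldo1, Pgd and G6pdx, enzymes of the pentose phosphate pathway, were among those lower in both genotypes, with log2 fold changes between -2.66 for Taldo1 and -5.05 for G6pdx. Gstm1 and Ephx1, an epoxide hydrolase, were among those higher in both, with 1.99 and 1.78 for Gstm1 and 5.31 and 4.89 for Ephx1.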

How the data were processed

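RNA of sorted cells was made into cDNA with the SMARTer method and sequenced as single-end reads of 51 bases. The authors aligned reads to mm10 transcripts with Bowtie, discarded those that mapped to more than 1 place, and deposited read counts estimated with RSEM, as whole numbers without normalization, for 25251 genes. The authors also deposited RPKM, the count scaled to transcript length and library total, printed to 2 decimals. Versions of Bowtie and RSEM and the strandedness of counting are not given in the sources used here, so overlapping genes may share reads. The discarded reads lower the values of near-identical genes.

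Groups and replicate numbers were taken from the labels, and per a figure legend of the study each library came from 1 mouse. The p-values thus measure the spread between libraries of this experiment. In that spread, differences between mice are not separated from the sampling of few cells and from amplification. The members, lists and tests were chosen with earlier results of these data known. Counts were tested with edgeR 4.0.16 in R 4.3.3 (quasi-likelihood, TMM normalization, filterByExpr, no covariate, each comparison fitted on its own groups), and calls needed an adjusted p under 0.1 with mean RPKM (pseudocount 0.01) at least 1 log2 unit apart. The script was tested on simulated counts. Alternatives were DESeq2 1.42.0, its size factors in edgeR, no filter, a replicate block, the adjusted p alone, and leaving out each library. A term for the dissociation split of MNCs was added after seeing the data. Same-numbered libraries had deviations that correlated between -0.0753 and 0.0618, so the numbers were not taken as pairs.

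Named genes were the 9 members, the 3 genes most like each member with a mean of at least 1 RPKM, listed genes among the 5 most abundant of their list in a population, and the 5 nearest genes on each side of the cluster. Windows of 51 bases were compared between GENCODE M21 transcripts, which may differ from the authors' transcript set. Promoters are from RefSeq. 1 listed gene is not reported here.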

Additional observations from a re-analysis of the deposited data

Results flagged for a closer look

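Of 38 groups in which a member had any count, 14 held 1 library whose log2(RPKM + 1) stood apart from the others by Dixon's test, which chance gives for about 1 group in 20 (5%) when values are normally distributed. Many of the 14 are a single library with counts in a group otherwise at or near 0.

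For Akr1c13 the libraries were Flt3ITD/ITD EC replicate 5 (1.03 RPKM), Flt3+/+ MSC replicate 2 (0.95) and Flt3ITD/ITD MSC replicate 4 (11.44). For Akr1c19 they were Flt3ITD/ITD EC replicate 4 (6.79 RPKM), Flt3ITD/ITD MSC replicate 2 (7.35) and Flt3+/+ MNC replicate 4 (0.15). Akr1c14 stood apart in Flt3ITD/ITD EC replicate 2 (74.47 RPKM), the library with 21848 summed RPKM of leukocyte genes, and in Flt3+/+ MNC replicate 1 (0.02 RPKM, 1 count). Akr1c18 stood apart in Flt3ITD/ITD MNC replicate 3 (1.28 RPKM) and Akr1c12 in Flt3+/+ MSC replicate 4 (0.03). Values of 7 counts or fewer were flagged for Akr1c6 in Flt3+/+ EC replicate 5 (0.02 RPKM) and Flt3+/+ MNC replicate 2 (0.04), for Akr1c20 in Flt3ITD/ITD EC replicate 2 (0.13) and for Akr1c21 in Flt3+/+ MNC replicate 4 (0.04).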

How the results depend on the processing

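Of 102 values of single members under other settings that kept all libraries, 98 kept their direction and their side of the threshold. Akr1cl changed sign under the replicate block in ECs between genotypes (-0.53) and in Flt3ITD/ITD ECs against MNCs (-0.0471), and Akr1c12 and Akr1c13 became called in Flt3ITD/ITD MSCs against MNCs (-7.35 and -8.93, 2 members called instead of 0). The block left 0 genes called between genotypes in ECs, MSCs and MNCs (1, 4 and 2 without it) and 1 for the difference between ECs and MNCs (5 without it), and changed no other call of a member. Numbers were not taken as pairs, and same-numbered libraries were not each other's best match throughout.

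Without the filter on low counts, 0 genes were called between genotypes in ECs, 2 in MSCs and 3 for the difference, and members called went from 0 to 2 (Flt3+/+ ECs against MSCs) and from 1 to 3 (Flt3+/+ ECs against MNCs). Of all genes, 2885 of 22763 and 5651 of 23503 were called in these 2 comparisons without the filter. DESeq2 called 362, 197 and 327 genes between genotypes in ECs, MSCs and MNCs, 373 for the difference, and 4430 and 4156 in ECs against MSCs of Flt3+/+ and Flt3ITD/ITD mice (2497 and 2158 with edgeR). DESeq2 called 3 members in Flt3+/+ ECs against MSCs and 3 against MNCs, where it called 6934 of 22341 genes. With the dissociation split as a term, added after seeing the data, 0 genes were called in MNCs.

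Leaving out 1 library gave 0 to 0 genes in ECs, 0 to 2 in MSCs, 0 to 1 in MNCs and 1 to 10 for the difference, and 0 to 2 members in Flt3ITD/ITD MSCs against MNCs, 2 only without MSC replicate 4. Signs turned between genotypes in ECs for Akr1c14 (range -0.10 to 0.91, negative without Flt3ITD/ITD replicate 2) and Akr1cl (-0.36 to 0.40, lowest without Flt3ITD/ITD replicate 1), and in the difference for Akr1c19 (-2.50 to 1.15, lowest without Flt3+/+ MNC replicate 4). Mean Akr1c14 was 3.84 to 5.30 RPKM in Flt3+/+ MSCs and 0.0025 to 0.0075 in Flt3ITD/ITD MSCs, a description of the values that chose the family. The cause of these changes was not tested. Of the 3 genes most like each member, 0 to 3 were kept under other settings. Depth limits values under 3 counts, which covers Akr1c6 and Akr1c21.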
